A study of Mus musculus with 79 samples.

Results

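The genes described here are 10 genes of glucose uptake, glycolysis and glycogen metabolism in mouse quadriceps, out of 22335 genes named on the arrays. They were Slc2a4, Slc2a1, Hk2, Pfkm, Pfkfb3, Aldoa, Pgam2, Eno3, Pygm and Gys1. Each was found by its symbol, and each was represented by 1 of the 35556 probesets. Quadriceps RNA was hybridised to Affymetrix mouse gene arrays, and the deposited values were log-type scores, scaled so that the probesets of an array average 8.0 with an SD of 2.0. A difference of 1 in these units is therefore not a known fold, and levels are compared only within a gene. Brightness ranks and deciles, where given, place a probeset on the array and say nothing of the amount of RNA. The arrays came from male mice of the BXD family, inbred strains descended from a cross of B6 (C57BL/6J) with D2 (DBA/2J), and from both of these parents. The control group was 42 strains on chow diet (CD). The other group was 37 of those strains on high fat diet (HFD) from 8 weeks of age. All mice were fasted overnight and killed at 29 weeks. Each array held pooled RNA of about 5 mice of a strain on a diet, so the spread between animals was not measured, and each strain gave 1 array per diet. P-values therefore measure the spread between pools, not between animals. The main diet comparison counts the 2 arrays of a strain as independent. Fits with a term for strain use the spread that is left between the 2 arrays of a strain.

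Skeletal muscle takes up glucose through transporters in the cell surface, chiefly GLUT4, which insulin and contraction bring to the membrane from stores inside the cell. Hexokinase traps the sugar as glucose 6-phosphate, which either enters glycolysis, with phosphofructokinase as its main control point, or is stored as glycogen by glycogen synthase. Glycogen phosphorylase releases the stored sugar again during work, and fast-twitch fibres are rich in phosphorylase and in the glycolytic enzymes.

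Promoter sequences are shown for 3 of the 5 enzyme genes that varied together across arrays (Pgam2, Eno3 and Pygm) and for Gys1, which was lower on HFD. Each line holds the 250 bases before the annotated start in RefSeq on build GRCm38.p6, read 5′ to 3′ on the strand of the gene. Capitals mark the E-box CANNTG, the GC box GGGCGG on either strand and the MEF2 site.
Pgam2 (chr11:5803797-5804046, minus strand): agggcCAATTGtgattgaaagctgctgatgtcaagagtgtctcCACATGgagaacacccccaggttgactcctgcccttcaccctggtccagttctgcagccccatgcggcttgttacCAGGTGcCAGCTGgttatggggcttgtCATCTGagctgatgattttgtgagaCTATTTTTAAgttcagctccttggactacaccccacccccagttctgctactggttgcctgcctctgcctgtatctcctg
Eno3 (chr11:70656926-70657175, plus strand): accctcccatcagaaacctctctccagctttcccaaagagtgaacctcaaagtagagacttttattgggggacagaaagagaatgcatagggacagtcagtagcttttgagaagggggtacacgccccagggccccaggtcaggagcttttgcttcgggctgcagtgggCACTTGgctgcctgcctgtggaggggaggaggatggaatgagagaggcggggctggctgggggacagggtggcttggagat
Pygm (chr19:6384158-6384407, plus strand): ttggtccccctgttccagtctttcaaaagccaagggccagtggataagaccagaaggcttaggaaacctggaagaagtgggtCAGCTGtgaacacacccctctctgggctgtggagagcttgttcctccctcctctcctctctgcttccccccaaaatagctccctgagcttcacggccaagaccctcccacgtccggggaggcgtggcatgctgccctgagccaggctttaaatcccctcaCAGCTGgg
Gys1 (chr7:45434589-45434838, plus strand): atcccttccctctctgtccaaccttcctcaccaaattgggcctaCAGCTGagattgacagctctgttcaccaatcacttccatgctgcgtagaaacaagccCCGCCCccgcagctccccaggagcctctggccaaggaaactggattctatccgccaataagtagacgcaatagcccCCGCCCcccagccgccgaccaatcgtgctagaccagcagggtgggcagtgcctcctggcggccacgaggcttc
A match to the MEF2 motif, the site bound by the MEF2 muscle transcription factors, was present in the Pgam2 window, 80 bases before the start, and in 2.92% of 32851 windows of the same length. It was found in none of the other windows searched for the 10 genes, those of Aldoa and Pfkm among them. Pgam2 held 5 E-boxes, Pygm 2, and Eno3 and Gys1 1 each, and 66.2% of all windows held at least 1. Gys1 held 2 GC boxes, a motif present in 32.7% of windows, and the other 3 windows held 0. The hypoxia core motifs ACGTG and GCGTG, present in 16.6% and 28.2% of windows, were also searched on both strands. Pygm held 1 of each and Eno3 held 1 GCGTG. The TATA box TATAAA, present in 12.4% of windows, was found in none of these 4. RefSeq windows were matched for 9 of the 10 genes; Slc2a4 was not matched. A match is a description of letters and was not tied to any measurement here.

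All 7 markers of skeletal muscle that were examined, among them Acta1, Ckm and Myh4, lay in the brightest decile of probesets. Of the 10 genes, 9 lay in that decile and Slc2a1 in the next. RNA was extracted and hybridised in 2 batches. Batch 1 held 35 arrays, 18 of them CD, and batch 2 held 44, 24 of them CD. No probeset differed between batches at an unadjusted p below 0.05 (0 of 35556), so the batch means were nearly equal in the values as deposited. How batch was handled upstream is not given in the sources used here. Array medians ranged from 7.78 to 7.92, and the lowest pair were the HFD arrays of BXD69 and BXD79.

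The question of the first comparison was whether the 10 genes differ between diets. 4 of them were lower on HFD and none was higher. Across all probesets, 19.3% were called lower and 18.9% higher. Within the brightest decile, 8.72% were called lower and 16% higher. A quantile normalization was also run on the deposited scores and is called the second one here. Whether a first was done upstream is not given in the sources used here. After the second quantile normalization the brightest decile held 438 lower and 446 higher calls, against 310 and 569 before it. With arrays centred on their median it held 187 lower and 787 higher calls, and over all probesets 5758 were lower and 8199 higher, against 6848 and 6703 as deposited. Calls were made with limma at an adjusted p below 0.05 over all 35556 probesets, with batch as a term. In such whole-muscle samples, fewer cells of a type and less RNA per cell cannot be told apart.

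**Figure D1:**
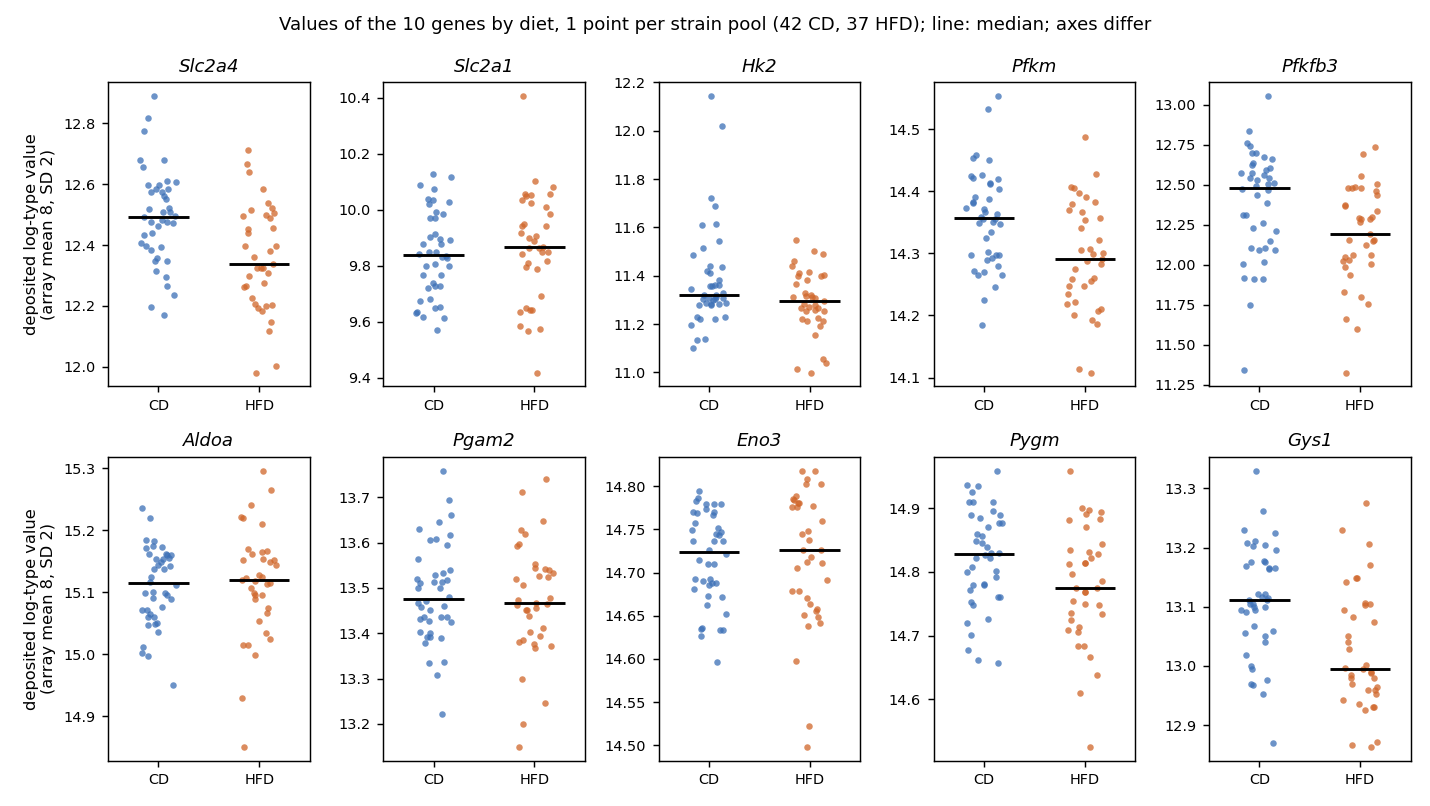
Values of each of the 10 genes (vertical axes, deposited log-type units, scaled separately for each gene) on CD (blue, 42 strain pools) and HFD (orange, 37 strain pools), with 1 point per array and a line at the median. The groups overlap for every gene, and the median is lower on HFD for Slc2a4 (12.34 against 12.49) and Pfkfb3 (12.19 against 12.48).

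Slc2a4 encodes GLUT4, the transporter that responds to insulin. Its values on CD ran from 12.17 in BXD65 through a median of 12.49 to 12.89 in BXD87. On HFD they ran from 11.98, again in BXD65, through a median of 12.34 to 12.71 in BXD100. The ranges overlapped over most of their length, and the whole distribution lay lower on HFD. The difference was -0.136 ± 0.0375 (SE, limma adjusted p = 0.00245), close to the SD between strains on CD, which was 0.157. Slc2a4 was lower on HFD in 29 of 37 strains, with the most negative difference in B6 (-0.457) and the most positive in BXD69 (0.255). In D2 the difference was -0.370.

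Slc2a1 encodes GLUT1, the transporter of basal uptake in many cell types. Its values ran from 9.57 to 10.13 on CD, with a median of 9.84, and from 9.42 to 10.41 on HFD, with a median of 9.87. BXD61 was lowest and BXD75 second lowest on both diets. The diet difference was 0.0227 (95% interval -0.0554 to 0.101, limma adjusted p = 0.685), with 18 strains higher on HFD and 19 lower.

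Hk2 encodes hexokinase 2, the muscle form of the enzyme that traps glucose. It ranged from 11.10 through a median of 11.32 to 12.14 on CD, and from 10.999 through 11.30 to 11.55 on HFD. Several CD values stood above every HFD value, the 2 highest being 12.14 in BXD81 and 12.02 in BXD56. The difference of -0.0916 ± 0.0401 (SE) did not pass (limma adjusted p = 0.0622), although 26 of 37 strains were lower on HFD. With strain as a replicate block, which compares each strain with itself, the difference was -0.0882 and passed (limma adjusted p = 0.0335), while the same 37 strains without the block gave -0.0817 (limma adjusted p = 0.108). It also passed after a second quantile normalization (-0.103, limma adjusted p = 0.0375), and over all alternatives the adjusted p ran from 0.0335 to 0.307.

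Pfkm encodes the muscle subunit of phosphofructokinase, which commits sugar to glycolysis. On CD it ranged from 14.19 through a median of 14.36 to 14.55, and on HFD from 14.11 through 14.29 to 14.49. The difference was -0.0610 ± 0.0197 (SE, limma adjusted p = 0.00997), and the SD between strains was 0.0779 on CD and 0.0870 on HFD. It was lower on HFD in 27 of 37 strains, furthest in BXD69 (-0.346).

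Pfkfb3 encodes a kinase and phosphatase that sets fructose 2,6-bisphosphate, the activator of phosphofructokinase. It had the widest spread of the 10 genes on either diet, from 11.34 in BXD98 through a median of 12.48 to 13.05 in BXD43 on CD, and from 11.33 in BXD65 through 12.19 to 12.73 in BXD56 on HFD. The difference was -0.196 ± 0.0724 (SE, limma adjusted p = 0.0251), with 28 of 37 strains lower. The difference within strains reached from -0.974 in BXD44 to 0.995 in BXD98, the strain with the lowest CD value.

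Aldoa (aldolase A), Pgam2 (muscle phosphoglycerate mutase) and Eno3 (muscle enolase) carry out later steps of glycolysis. Aldoa ranged from 14.95 to 15.24 on CD and from 14.85 to 15.30 on HFD, with medians of 15.11 and 15.12. Pgam2 ranged from 13.22 to 13.76 on CD and from 13.15 to 13.74 on HFD, with medians of 13.48 and 13.47. Eno3 ranged from 14.60 to 14.79 on CD and from 14.50 to 14.82 on HFD, with medians of 14.72 and 14.73. None of these 3 passed the test. The limma difference was 0.00494 for Aldoa (95% interval -0.0316 to 0.0415), -0.0162 for Pgam2 (-0.0707 to 0.0383) and -0.000123 for Eno3 (-0.0326 to 0.0324), with adjusted p of 0.858, 0.677 and 0.996.

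Gys1 encodes muscle glycogen synthase, which builds the polymer. Its values on CD ran from 12.87 in BXD63 through a median of 13.11 to 13.33 in BXD68, and on HFD from 12.86 in BXD43 through 12.995 to 13.28 in BXD100. The difference was -0.0841 ± 0.0230 (SE, limma adjusted p = 0.00227). Of 37 strains, 29 were lower on HFD, from -0.341 in BXD68 to 0.172 in BXD70 at the other end.

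Pygm encodes muscle glycogen phosphorylase, which breaks the polymer down. It ranged from 14.66 through a median of 14.83 to 14.96 on CD, and from 14.53 through 14.78 to 14.96 on HFD. The difference of -0.0427 ± 0.0201 (SE) did not pass (limma adjusted p = 0.0853), with 25 of 37 strains lower on HFD. After a second quantile normalization it was -0.0480 and passed (limma adjusted p = 0.0112), and over all alternatives the adjusted p ran from 0.0112 to 0.427.

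The direction of the 4 calls was the same in each batch. In batch 1 alone the differences were -0.142 for Slc2a4, -0.0715 for Pfkm, -0.194 for Pfkfb3 and -0.0830 for Gys1, and 0 of the 10 genes passed (2 had an unadjusted limma p below 0.05). In batch 2 alone they were -0.131, -0.0527, -0.198 and -0.0850, and only Slc2a4 (adjusted p = 0.0033) and Gys1 (adjusted p = 0.0312) passed in limma. Over all alternatives the limma adjusted p ran from 8.18e-05 to 0.214 for Slc2a4, from 0.000205 to 0.159 for Gys1, from 0.000386 to 0.17 for Pfkm and from 0.00269 to 0.287 for Pfkfb3. The interaction of diet with batch was called for 0 of 10 genes (0 at an unadjusted limma p below 0.05). Its t values over all probesets had an SD of 0.379, narrower than a t distribution, so this test is not a usable check of batch.

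**Figure D2:**
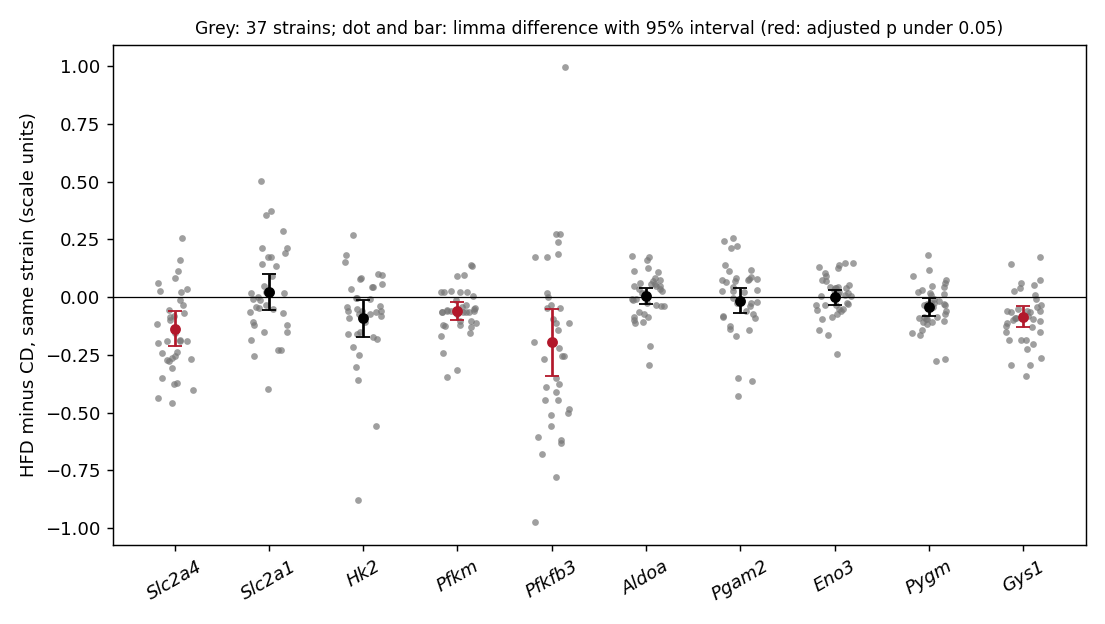
HFD minus CD (vertical axis, deposited units) for each of the 10 genes. Grey points are the 37 strains with both diets, and the dots with bars are the limma differences over all 79 arrays with their 95% intervals, red where the adjusted p was under 0.05. Slc2a4, Pfkm, Pfkfb3 and Gys1 lie below 0, and single strains fall on both sides of 0 for every gene.

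Strains differed in how many of the genes moved which way. Of the 4 genes called lower, all 4 were lower in 13 strains, 3 in 15 strains, 2 in 8 strains and none in 1 strain, BXD100. Across all 10 genes the count higher on HFD ran from 0 in BXD62 to 8 in BXD100, with a median of 4. These counts are a description, since the genes share the arrays of a strain.

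The other genes of these pathways are given beside the 19.3% of all probesets called lower and the 18.9% called higher, and their counts are a description. Among 12 other genes of glucose uptake, 4 were called lower, 2 higher and 6 neither. Slc2a3, the neuronal-type transporter GLUT3, fell by 0.165 (limma adjusted p = 0.0303), from a mean of 8.95 ± 0.311 (SD, n = 42) on CD to 8.78 ± 0.241 (SD, n = 37) on HFD. It did not pass with arrays centred on their median (-0.148, limma adjusted p = 0.0626), and its adjusted p ran from 0.00151 to 0.224 over all alternatives. Txnip, an arrestin-like protein that limits uptake, fell by 0.129 (limma adjusted p = 0.00108) and was lower in 33 of 37 strains. Tbc1d4, the insulin-regulated brake on GLUT4 traffic also called AS160, was 0.169 higher (limma adjusted p = 0.00248) in 33 of 37 strains. Slc2a10 was 0.179 higher (limma adjusted p = 3.41e-05).

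Among 24 other glycolysis and lactate genes, 7 were called lower, 4 higher and 13 neither. Pfkp, the platelet form of phosphofructokinase, was 0.245 higher (limma adjusted p = 5.7e-08) in 35 of 37 strains, opposite in direction to Pfkm. Fbp2, the muscle fructose bisphosphatase, was 0.396 higher (limma adjusted p = 0.000121) in 32 of 37 strains. Pfkfb4 fell by 0.127 (limma adjusted p = 0.000102), the same direction as Pfkfb3. Hk3, a further hexokinase, was also lower (-0.122, limma adjusted p = 0.00308), and its probeset was dim. Pkm, pyruvate kinase of muscle, was chosen after its values were seen and fell by 0.115 (limma adjusted p = 0.000158) in 31 of 37 strains.

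Among 21 other glycogen genes, 4 were called lower, 0 higher and 17 neither, so that the lower calls were near the share over all probesets. Ppp1r3c, a subunit that targets protein phosphatase 1 to glycogen, showed the largest fall of the list, from 11.89 ± 0.462 (SD, n = 42) on CD to 11.57 ± 0.411 (SD, n = 37) on HFD (-0.320, limma adjusted p = 0.00642). Pgm2, a phosphoglucomutase, fell by 0.117 (limma adjusted p = 0.00155), and Ppp1r3d, a further targeting subunit, fell by 0.112 (limma adjusted p = 0.00146). The median difference of this list was -0.0205, that of the 10 genes was -0.0518 and that of all probesets was -0.000663. Among 12 regulators, Foxo1 (-0.173, limma adjusted p = 0.0125) and Klf15 (-0.121, limma adjusted p = 0.0129), fasting-responsive transcription factors, were lower. Hif1a, the oxygen-regulated factor, was higher (0.206, limma adjusted p = 2.35e-07), and the other 9 regulators did not pass. In batch 1 alone Fbp2, Pfkp, Pfkfb4, Pkm and Hif1a still passed, and the other named genes of these lists did not.

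**Figure D3:**
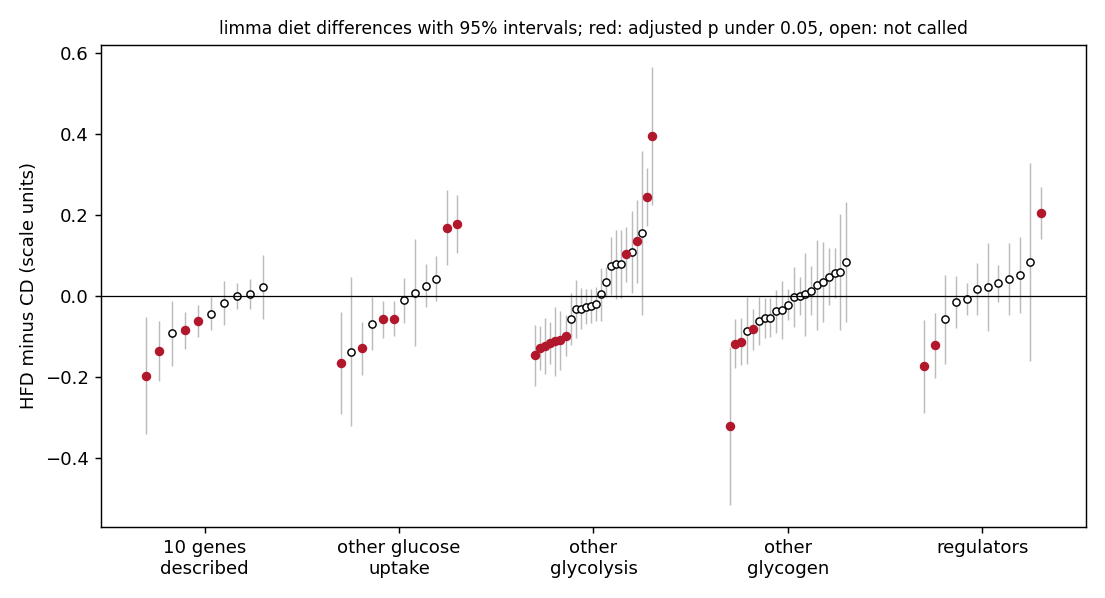
HFD minus CD (vertical axis, deposited units) with limma 95% intervals for the 10 genes described and for 12 other genes of glucose uptake, 24 of glycolysis, 21 of glycogen metabolism and 12 regulators, sorted within each list. Red points passed an adjusted p of 0.05 and open points did not, and no other glycogen gene passed above 0.

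Markers of other cell types moved with diet as well, beside 18.9% of all probesets called higher and 19.3% called lower. Adipocyte markers were higher for 5 of 7 and lower for 1 (Cfd), and their mean level ran from 9.27 to 10.96 on CD arrays and from 9.43 to 11.43 on HFD arrays. Macrophage markers were higher for 4 of 5 (mean level 8.10 to 8.77 on CD, 8.15 to 9.19 on HFD), endothelial markers for 3 of 6 (9.51 to 10.29 and 9.85 to 10.42) and nerve markers for 2 of 5, with 1 lower. Red cell markers passed for 0 of 4, slow fibre markers for 0 of 7, fast fibre markers for 1 of 9 (Tnni2, lower) and skeletal muscle markers for 1 of 7 (Mb, myoglobin, 0.130 higher, limma adjusted p = 0.00892). No marker had a true 0 on this scale. The part of these cell types in the differences of the 10 genes was not tested.

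The next question was how far strains differ. The range over strains, highest minus lowest, was 0.718 for Slc2a4 on CD and 0.730 on HFD, wider than that of 67.2% and 64.7% of the brightest decile of probesets. It was 1.71 and 1.41 for Pfkfb3, wider than 97.2% and 94.4%. Eno3 had the narrowest range, 0.197 on CD and 0.320 on HFD, wider than only 0.141% and 2.31% of that decile. Aldoa (0.285 on CD), Pygm (0.302) and Pfkm (0.368) were also narrow. These 4 probesets were near the top of the array, with between 49 and 123 probesets brighter on average, and saturation was not tested. Hk2 ranged over 1.04 on CD and 0.548 on HFD, and Slc2a1 over 0.556 and 0.987. A few strains set those wider ranges, BXD81 and BXD56 for Hk2 on CD and BXD79 for Slc2a1 on HFD, where it reached 10.41 against 10.10 for the next strain. The median range of the 10 genes was 0.499 on CD and 0.497 on HFD, and that of the brightest decile was 0.604 and 0.626.

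A strain effect shared by both diets was tested with limma over the 37 strains with both arrays. Of the 10 genes, 2 passed, both of them transporters: Slc2a1 (F = 2.48, adjusted p = 0.0306) and Slc2a4 (F = 2.43, adjusted p = 0.0347). Among all probesets 13.6% passed, and in the brightest decile, which holds Slc2a4 but not Slc2a1, 35.8% passed. The 2 of 10 lay between these shares. Pfkfb3 (F = 2.12, limma adjusted p = 0.0732) and Hk2 (F = 1.94, limma adjusted p = 0.111) came next and did not pass. Neither transporter passed when arrays were centred on their median (limma adjusted p = 0.0965 for Slc2a4 and 0.0684 for Slc2a1). Over all alternatives the adjusted p ran from 0.0152 to 0.0965 for Slc2a4 and from 0.0132 to 0.0684 for Slc2a1.

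Each strain was then compared across diets. Over 37 strains, with the mean of each diet and batch removed, Slc2a4 had r = 0.45 (permutation p = 0.00458) and rho = 0.47 (permutation p = 0.00389), and r = 0.43 without the 2 strains that lay farthest from the median on CD. Slc2a1 had r = 0.44 (permutation p = 0.00592) and rho = 0.47 (permutation p = 0.00366), and r = 0.45 without 2 strains. Pygm had r = 0.40 (permutation p = 0.0128) and rho = 0.45 (permutation p = 0.00548), and r = 0.34 without 2 strains. Pfkfb3 had r = 0.33 (permutation p = 0.0458) and rho = 0.36 (permutation p = 0.0299), and r = 0.39 without 2 strains. These are 4 of 10 relations computed, with p-values as drawn and two-sided. The other 6 had r from 0.11 for Pgam2 to 0.32 for Hk2, each with a permutation p above 0.05 (the lowest was 0.0503). Hk2 moved most without its 2 farthest strains, BXD56 and BXD81, to r = 0.44 (permutation p = 0.00799), and Aldoa went from 0.17 to 0.07. The rank correlations of Hk2 (rho = 0.37, permutation p = 0.0268) and Gys1 (rho = 0.38, permutation p = 0.0204) were higher than their r. The median r of the 10 genes was 0.31, against 0.14 over all probesets and 0.36 in the brightest decile. No gene split the strains into separate clusters.

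Within batches the r of Slc2a4 stayed above 0, with r = 0.57 for the 12 strains with both arrays in batch 1, r = 0.56 for the 17 in batch 2 and r = 0.25 for the 8 with arrays in different batches. For Slc2a1 the values were 0.30, 0.59 and 0.49. For Pygm they were 0.81, 0.32 and 0.30, and for Pfkfb3 0.43, 0.27 and 0.54. Pfkm and Pgam2 changed most, from 0.71 and 0.69 in batch 1 to -0.26 and -0.35 in strains with arrays in different batches.

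**Figure D4:**
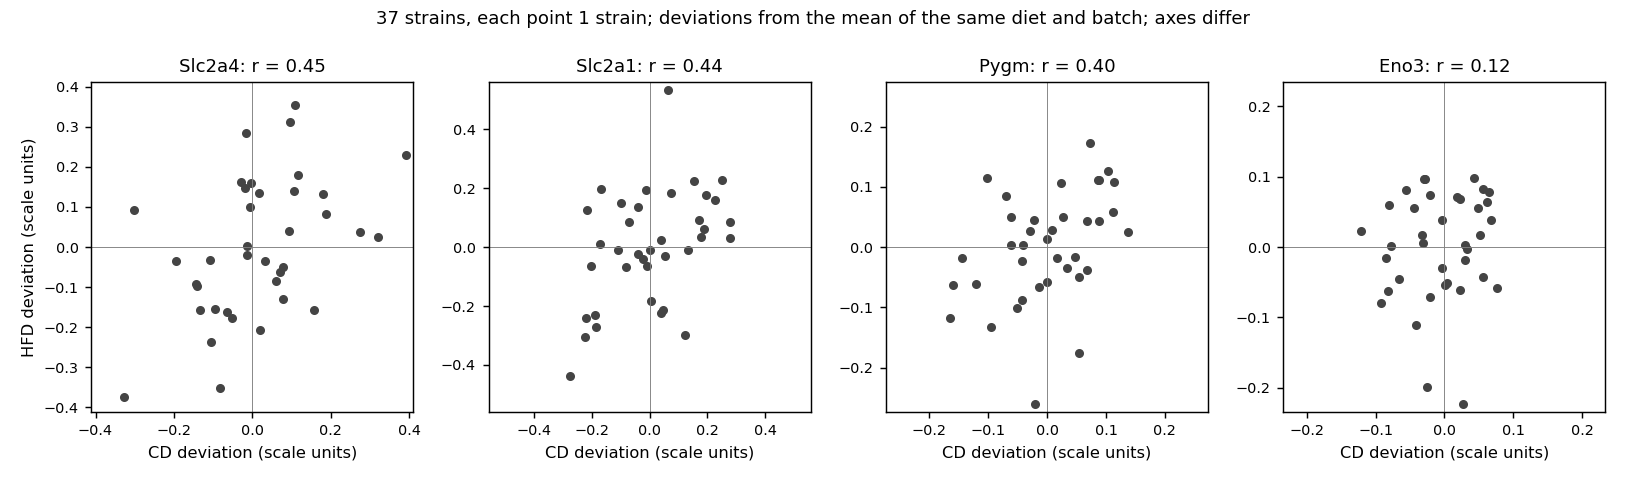
Deviation from the mean of the same diet and batch on CD (horizontal axis) and HFD (vertical axis), in deposited units, for Slc2a4, Slc2a1, Pygm and Eno3. Each point is 1 of 37 strains. The points rise together for Slc2a4 (r = 0.45) and Slc2a1 (r = 0.44) and less so for Eno3 (r = 0.12).

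The parents were compared in the same kind of fit. B6 minus D2 was called for 0 of 10 genes with limma (0 at an unadjusted p below 0.05, also with limma-trend), against 1.26% of all probesets. All 10 differences were above 0, from 0.0165 for Hk2 to 0.145 for Pgam2, and each interval held 0. For Slc2a4 it was 0.0945 with a 95% interval of -0.160 to 0.349, an interval wide enough to hold a difference of the size seen between diets. Each parent had 1 array per diet.

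The last question was which of the genes vary together. Over the 79 arrays, with diet and batch removed, 45 pairs were examined, and a pair was called where both limma fits, each with the other gene as the outcome, passed. The 10 calls were exactly the 10 pairs among Aldoa, Eno3, Pygm, Pfkm and Pgam2. Their partial r ran from 0.45 (Pfkm with Eno3) to 0.78 (Aldoa with Pygm), with a median of 0.59, rho from 0.38 to 0.72 and permutation p from 1e-05, the smallest the draws can give, to 4e-05. Without the 2 arrays farthest from the median of the first gene, r ran from 0.39 to 0.72. These fits and permutations count the 2 arrays of a strain as independent. With the mean of both arrays of each of the 37 strains as the unit, r ran from 0.30 to 0.75 and 5 of the 10 pairs passed in limma. They were the 3 pairs among Aldoa, Eno3 and Pygm, and Pfkm with Aldoa and with Pygm, and no pair of Pgam2 passed. On CD alone 5 of the 10 pairs passed, with r from 0.30 to 0.75, and on HFD alone 9 passed, with r from 0.49 to 0.83. Over all 79 arrays the limma adjusted p of the 10 pairs lay between 1.58e-10 and 0.00194.

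As deposited, many other probesets rose with these 5 enzymes. The share of all probesets called as rising with them was 26.8% for Aldoa, 26.3% for Eno3, 17.8% for Pygm, 17.6% for Pfkm and 15.7% for Pgam2. Many also fell as they rose, 7222 probesets for Aldoa and 6890 for Eno3. After a second quantile normalization the rising probesets numbered 459 for Aldoa (9520 before), 380 for Eno3 (9363), 238 for Pygm (6318), 920 for Pfkm (6260) and 2091 for Pgam2 (5580). The partial r of each enzyme with the array median was 0.68 for Aldoa, 0.64 for Eno3, 0.49 for Pfkm, 0.45 for Pygm and 0.39 for Pgam2. A second quantile normalization, which gives all arrays the same distribution, left 3 of the 10 pairs called (Pfkm with Pygm, Pfkm with Pgam2 and Pgam2 with Eno3) and lowered r to between 0.01 and 0.48. Centring arrays on their median left 9. In batch 1 alone 0 of the 45 pairs passed in limma (8 of the 45 at an unadjusted p below 0.05 in both fits), with r among the 10 from 0.09 to 0.59, and in batch 2 alone all 10 passed, with r from 0.63 to 0.87. The HFD arrays of BXD69 and BXD79 held the lowest HFD values of Aldoa, Pgam2, Eno3 and Pygm, as well as the lowest array medians. Without them the 10 pairs passed with r from 0.36 to 0.72, and the probesets rising with Pgam2 dropped from 5580 to 2082 and those rising with Pygm from 6318 to 3036.

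**Figure D5:**
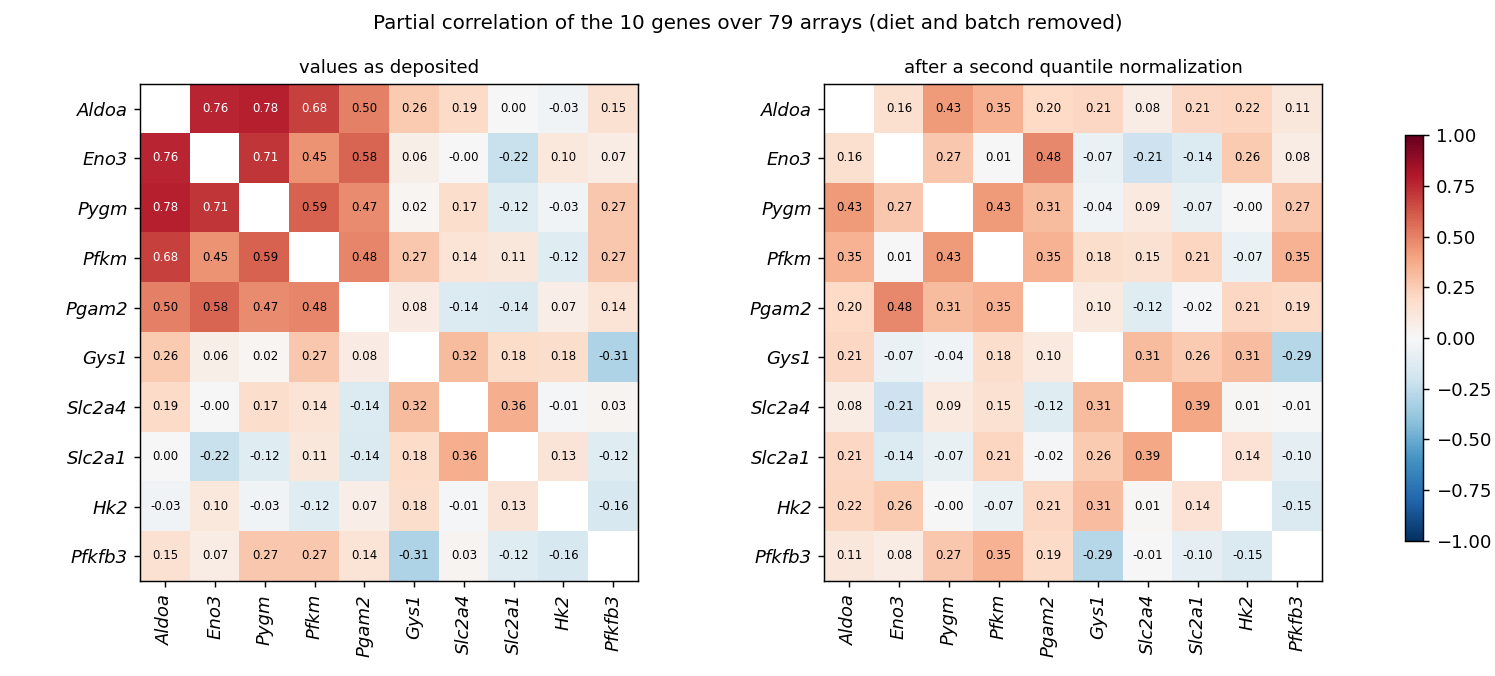
Partial correlation over 79 arrays for each pair of the 10 genes with diet and batch removed, from values as deposited (left) and after a second quantile normalization (right), coloured from -1 (blue) to 1 (red). The block of Aldoa, Eno3, Pygm, Pfkm and Pgam2 at the upper left runs from 0.45 to 0.78 on the left and from 0.01 to 0.48 on the right.

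No pair among the other 5 genes was called. Slc2a4 with Slc2a1 had r = 0.36 (permutation p = 0.00106) and rho = 0.39 (permutation p = 0.00047). Slc2a4 with Gys1 had r = 0.32 (permutation p = 0.00397) and rho = 0.33 (permutation p = 0.0037). Neither pair passed in both limma fits (highest adjusted p 0.133 and 0.107). The r of both pairs stayed near these values after a second quantile normalization, at 0.39 and 0.31. Pfkfb3 ran against Gys1, with r = -0.31 (permutation p = 0.00588) and rho = -0.36 (permutation p = 0.00141). This pair did not pass either (limma adjusted p = 0.336). As deposited, the share of probesets rising with each was 2.58% for Slc2a4, 0.979% for Hk2, 0.793% for Gys1, 0.169% for Slc2a1 and 0.0534% for Pfkfb3. For Slc2a4 this was 916 probesets, and it was 728 after a second quantile normalization, above the 459 of Aldoa, and 2432 after median centring. None of the 25 pairs of these 5 genes with the 5 enzymes of the block was called as deposited, with r from -0.22 to 0.27. With the mean of both arrays of a strain as the unit, their r ran from -0.12 (Slc2a1 with Eno3) to 0.46 (Slc2a4 with Aldoa). Within the block it then ran from 0.30 to 0.75. After a second quantile normalization their r ran from -0.21 (Slc2a4 with Eno3) to 0.35 (Pfkfb3 with Pfkm), against 0.01 to 0.48 within the block. The ranges overlapped under both alternatives.

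For each gene the closest others across arrays were listed by partial r over the 79 arrays. Aldoa was closest to Gapdh (0.91), Gm12070 (0.90) and Atp2a1 (0.90), the calcium pump of fast fibres. Gapdh has many near-identical copies, so its value is uncertain. Eno3 was closest to Atp2a1 (0.84), 6530411M01Rik (0.83) and Gm5523 (0.83), and Pygm to Aldoa (0.78), Atp2a1 (0.77) and Tpm1 (0.77). After a second quantile normalization these values lay between 0.09 and 0.43, with the exception of Tpm1 with Pygm at 0.49. Pgam2 was closest to Ky (0.75), E130308A19Rik (0.70) and Pde6d (0.68), and Pfkm to Ndrg2 (0.70), Aldoa (0.68) and Acta1 (0.66). The Pgam2 trio and Ndrg2 with Pfkm passed under each of the 10 alternatives. Slc2a4 was closest to Anxa11 (0.74), G6pc3 (0.67) and Yipf3 (0.65), none of which passed in batch 2 alone. Slc2a1 was closest to Agfg2 (0.59), Flnc (0.55) and Xirp1 (0.55), the last pair being structural proteins of muscle. Hk2 was closest to Ppargc1a (0.66), the coactivator of mitochondrial genes, Plekhb2 (0.59) and Mtmr10 (0.58). Gys1 was closest to Got2 (0.55), Cs (0.54), the citrate synthase of mitochondria, and Fam70b (0.54), and Pfkfb3 to Gm7265 (0.61), Htra4 (0.52) and Klf10 (0.50). The genes closest to Slc2a1, Gys1 and Pfkfb3 passed in only 5 or 6 of the 10 alternatives, and those closest to Hk2 in 7 or 8. None of those closest to Slc2a1, Gys1 or Pfkfb3 passed with the mean of both arrays of a strain as the unit, and for Hk2 only Plekhb2 did.

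Several relations of the block with regulators depended on the scaling. As deposited, Hif1a ran against each of the 5 enzymes, with partial r from -0.40 for Pgam2 to -0.69 for Aldoa. After a second quantile normalization its r lay between -0.05 and -0.28 and passed in limma for none of the 5. As deposited, Mef2c, a muscle transcription factor, ran with 4 of the 5 (0.38 to 0.45), and so did Mlxip, a glucose-responsive factor (0.28 to 0.41). After the second normalization Mef2c passed for Pgam2 alone (0.43) and Mlxip for none. As deposited, Klf15 also ran against Pgam2 (-0.29) and Mef2a with Pygm (0.30). Neither passed after the second normalization (limma adjusted p = 0.0687 and 0.198). Foxo1 ran against Pgam2 (-0.65), Eno3 (-0.45) and Aldoa (-0.30), and after the second normalization it passed against Pgam2 (-0.62) and Eno3 (-0.47). Hk2 ran with Ppargc1a (0.66) and with Nr4a3 (0.42), an orphan receptor induced by exercise, and against Mef2d (-0.45), and after the second normalization these were 0.65, 0.43 and -0.38. Pfkm ran with Mef2d (0.57, and 0.61 after it). Srebf1, a factor of lipid synthesis, ran with Pgam2 (0.30, then 0.34) and Eno3 (0.26, then 0.45). Gys1 ran with Mlxipl, a glucose-responsive factor (0.43), which did not pass after the second normalization (0.35, limma adjusted p = 0.134). Each of these passed in limma where no other statement is made. No regulator passed for Slc2a4, Slc2a1 or Pfkfb3 under either scaling.

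Fast fibre markers had a median partial r of 0.75 with Eno3, 0.66 with Pygm, 0.65 with Aldoa, 0.48 with Pgam2 and 0.31 with Pfkm, and between -0.08 and 0.06 with the other 5 genes. The fast myosin genes Myh1 and Myh2 did not share this, with r from -0.29 (Myh2 with Pygm, limma adjusted p = 0.0319) to 0.10 (Myh1 with Aldoa) over the 5 enzymes. After a second quantile normalization the medians were 0.26 for Eno3, 0.27 for Pygm, 0.19 for Aldoa, 0.33 for Pgam2 and -0.03 for Pfkm. Those of the other 5 genes then lay between -0.10 for Slc2a4 and 0.16 for Hk2, so the ranges of the groups overlapped. Hk2 ran with Tnnc2 under both scalings (0.39, limma adjusted p = 0.0345, and 0.49, limma adjusted p = 0.00447 after the second normalization). After it Slc2a4 ran against Myh4 (-0.52, limma adjusted p = 0.0205) and Tnnt3 (-0.40, limma adjusted p = 0.0370). Over the 5 enzymes the r of Myh1 and Myh2 then ran from -0.36 (Myh2 with Pygm, limma adjusted p = 0.0674) to 0.15 (Myh1 with Aldoa). Pfkm then ran against Myh1 (-0.36, limma adjusted p = 0.0327) and with the fast fibre marker Mybpc2 (0.37, limma adjusted p = 0.0280).

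Markers of other cells also moved with the block as deposited. Of all probesets, 20.3% were called as falling with Aldoa, 19.4% with Eno3, 13.3% with Pygm, 13.6% with Pfkm and 10.1% with Pgam2. These numbered 518, 436, 244, 933 and 1693 probesets after a second quantile normalization, and the marker counts that follow are from the values as deposited. Macrophage markers passed as falling for 5 of 5 with Aldoa, 4 of 5 with Eno3, 4 of 5 with Pygm, 1 of 5 with Pgam2 and 0 of 5 with Pfkm. Endothelial markers fell for 3 of 6 with Eno3 and Pgam2 and 2 of 6 with Aldoa, Pygm and Pfkm. Slow fibre markers fell for 5 of 7 with Pygm, 1 of 7 with Pgam2 and 0 of 7 with the other 3 enzymes. Adipocyte markers fell for 2 of 7 with Pygm and 1 of 7 with Aldoa, Eno3 and Pgam2, and rose for 1 of 7 with Pfkm. Nerve markers fell for 2 of 5 and rose for 1 with Eno3, fell for 1 with Pygm and rose for 1 with Aldoa. Red cell markers rose for 3 of 4 with Pfkm and 1 of 4 with Aldoa, Eno3 and Pygm. Outside the block, red cell markers rose for 3 of 4 with Slc2a4 and 2 of 4 with Gys1. Of all probesets, 2.58% rose with Slc2a4 and 0.793% with Gys1. A macrophage marker fell with Slc2a4 (1 of 5), an endothelial marker rose with Gys1 (1 of 6) and a nerve marker rose with Slc2a1 (1 of 5). The part of these cells in the covariation was not tested.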

How the data were processed

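Quadriceps RNA was measured on 79 arrays, 42 on CD and 37 on HFD. Of the 42 strains, 37 had both diets. The authors used Affymetrix Expression Console per the labels. The deposited values were a score per probeset, scaled to a mean of 8.0 and an SD of 2.0 on each array, and their log base, summarization and handling of batch are not given in the sources used here. Tests planned for log2 values were run on these scores. Precision is limited by the number of arrays. The chow column headed BXD92 was matched to the title BXD92a. The labels give the groups, strains and batches.

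Diet, strain, parental and covariation effects were fitted over all 35556 probesets with limma 3.58.1 in R 4.3.3, with batch as a term and Benjamini-Hochberg adjustment at 0.05. Correlations used 100000 permutations (scipy 1.17.1 and numpy 2.4.6 in Python 3.11.15, with pandas 2.3.3 for tables, matplotlib 3.10.9 for plots and scikit-learn 1.9.0 for clusters). Scripts were tested on simulated data. Pairing is by strain, which the labels name. Deviations of the arrays of a strain correlated with a median of 0.20, against -0.01 between strains, and above 0.1 in 33 of 37 strains. The 10 genes and all gene lists were chosen with earlier results of these data known. Named genes were the 10, called genes among the 3 largest differences of each list in each direction, and the 3 genes most alike to each of the 10. A gene that the rule would name is not reported here. Gene symbols come from the file. Pkm was matched through Pkm2 by RefSeq synonyms. A mixture of normal components was used to look for clusters of strains. Alternatives covered batch, block, strains, scaling, dim probesets, the methods' t-test and limma-trend.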

Additional observations from a re-analysis of the deposited data

How the results depend on the processing

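Of the 10 diet differences, 4 passed and 4 passed likewise without a batch term, in paired strains, without strain BXD63, after median centring, without dim probesets, in the methods' t-test (Student's, over all probesets) and in limma-trend. 0 passed in batch 1 alone and 2 in batch 2 alone, and each batch holds fewer arrays. With strain as a replicate block 5 passed, Hk2 being added, and after a second quantile normalization 6 passed. The block changed no other call among the 10 genes. Leaving out the HFD arrays of BXD69 and BXD79, an alternative chosen after seeing the data, kept the count at 4. Strain effects passed for 2 genes under every alternative apart from 0 after median centring (4 at an unadjusted limma p below 0.05) and 3 without dim probesets. Parental calls stayed at 0. The median cross-diet r lay between 0.276 and 0.399 under all alternatives. The median range fell to 0.241 on CD and 0.255 on HFD between the 10th and the 90th percentile. Of 10 covarying pairs, 5 passed on CD alone, 9 on HFD alone, 0 in batch 1 alone (8 of 45 at an unadjusted limma p below 0.05), 3 after a second quantile normalization and 5 with the mean of both arrays of a strain as the unit, the last chosen after seeing the data. That fit has fewer samples. The cause of these changes was not tested. Each of the 10 genes had 1 probeset, so means over probesets or a second probeset gave no other value. Strains with both arrays in 1 batch were fitted without the batch term, since strain and batch could not be separated there.

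Values were not raw intensities, so signal over background and saturation could not be examined, and the narrow ranges of the brightest genes carry that limit. Batch means were nearly equal as deposited, and if they were adjusted upstream, limma's error degrees of freedom take no account of it.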
